A study of Mus musculus with 6 samples.

Results

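The kidney makes glucose and ammonium from the same substrate, and the 8 genes described here carry the steps that link them: Pck1, Pck2, Pcx, Fbp1, G6pc and Slc37a4 of gluconeogenesis, and Glud1 and Slc38a3 of glutamine use. They were chosen by gene symbol, and all 8 were found among the 13696 protein-coding genes in the tables. The choice was made with the difference between these same groups already known, so the group values of the 8 genes are a description. Their calls in the fit across all genes are counted once, beside the share of all genes called, and are not used as evidence. Kidneys of mice aged 24 months were compared between 3 WT samples and 3 samples whose genotype is given as fat-1 knockin, called fat-1 below. The knockin mice carry an inserted nematode desaturase gene that makes omega-3 from omega-6 fatty acids. The series design gives its purpose as a transcriptome comparison of the kidney for effects of fat-1 at that age. The labels give no strain, sex, diet, feeding state, time of collection or promoter of the inserted gene, and no acid-base measurement. Nor do they state that each kidney is from another animal, so the spread between samples may be in part technical.

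In the proximal tubule, glutamine enters the cell from the blood side through Slc38a3, its ammonium is released in steps that end with glutamate dehydrogenase (Glud1), and the carbon left over leaves the mitochondrion as malate and is turned to phosphoenolpyruvate by Pck1. Fbp1 and then G6pc, fed by the glucose-6-phosphate carrier Slc37a4, finish the route to free glucose, which leaves for the blood. Fasting and a metabolic acid load are both known to raise renal Pck1. An acid load is also known for raising Slc38a3 and Glud1 in the proximal tubule, and fasting for raising genes of fatty acid oxidation through PPAR alpha.

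Levels are in FPKM, a count of sequenced fragments divided by transcript length and by library size, summed over the transcripts listed for a gene. Summed FPKM per library lay between 387488 and 431081, mitochondrially encoded genes took 12.1% to 16.7% of it, and correlations of log2(FPKM + 1) between libraries were 0.942 to 0.976 within groups and 0.946 to 0.970 across them. The depth of the libraries is unknown, because the tables hold no counts, so no counting intervals are given. WT replicate 1 stood apart in macrophage markers, whose summed level was 2392 FPKM there against 279 to 598 FPKM in the other 5 libraries. Erythrocyte markers reached 540 FPKM in fat-1 replicate 1 and 15.0 FPKM at the lowest in that group. The inserted gene was not analysed here, so the labels were not checked against it.

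Promoters of 7 of the 8 genes were matched by symbol in RefSeq sequences of the GRCm38.p6 build, in 10 windows of 250 bases ending 1 base before the RefSeq start of transcription. Those of Pck1, Glud1 and Pcx are shown because these genes were high together in fat-1. Pcx also has a pair of start sites, and the FPKM given to their transcripts differed between libraries. Capitals mark matches to the motifs searched on both strands: ACGTCA, the core of the cyclic AMP response element; GTTAAT, a half-site of HNF1; AGGTCA, a half-site of nuclear receptors; and TGTTTAC, a FOXO core with its flank. The sequences, 5′ to 3′ on the + strand, are those of Pck1 (chr2:173152823-173153072), Glud1 (chr14:34310477-34310726), the upstream start of Pcx (chr19:4510222-4510471) and the downstream start of Pcx (chr19:4594069-4594318).
Pck1: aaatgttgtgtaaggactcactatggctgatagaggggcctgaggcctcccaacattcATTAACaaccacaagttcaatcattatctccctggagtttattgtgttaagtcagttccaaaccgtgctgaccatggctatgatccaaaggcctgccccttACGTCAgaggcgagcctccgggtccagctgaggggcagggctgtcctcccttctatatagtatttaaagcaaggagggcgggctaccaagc
Glud1: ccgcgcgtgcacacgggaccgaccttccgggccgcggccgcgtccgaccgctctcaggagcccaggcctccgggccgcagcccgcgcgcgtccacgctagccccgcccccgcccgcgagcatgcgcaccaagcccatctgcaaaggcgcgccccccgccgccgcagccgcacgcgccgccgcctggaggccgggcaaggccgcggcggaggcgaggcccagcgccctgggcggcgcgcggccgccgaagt
Pcx upstream: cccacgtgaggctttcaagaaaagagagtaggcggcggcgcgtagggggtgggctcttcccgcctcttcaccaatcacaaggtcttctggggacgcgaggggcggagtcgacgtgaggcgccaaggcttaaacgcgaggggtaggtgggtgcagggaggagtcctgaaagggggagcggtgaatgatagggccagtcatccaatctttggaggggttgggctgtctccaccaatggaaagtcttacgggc
Pcx downstream: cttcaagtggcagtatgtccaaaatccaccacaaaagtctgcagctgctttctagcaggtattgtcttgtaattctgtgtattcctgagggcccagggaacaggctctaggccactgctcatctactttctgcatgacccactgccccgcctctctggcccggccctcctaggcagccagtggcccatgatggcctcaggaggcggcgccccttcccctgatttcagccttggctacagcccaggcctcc
The Pck1 window held ACGTCA at positions -91 to -86 and GTTAAT, read on the - strand, at -192 to -187, counted back from -1 at the base before the start. None of the 4 motifs was found in the Glud1 or Pcx windows. The Glud1 window was 82.0% G and C, against 50.8% for Pck1. G6pc had GTTAAT at -221 to -216 and AGGTCA, on the - strand, at -54 to -49, and Slc37a4 had AGGTCA and a single ACGTCA, the latter read on the - strand and shared by overlapping windows. The RefSeq start of G6pc is at position 101367716, but its listed transcript starts at 101367561, inside the window. By that transcript the AGGTCA match of G6pc lies in transcribed sequence. The ACGTCA match of Slc37a4 likewise lies downstream of its earliest listed start, at 44396852. No match overlapped another. Over all 32851 windows of this length in the table, 6.47% held ACGTCA, 6.43% GTTAAT, 14.0% AGGTCA and 3.17% TGTTTAC. A match describes the letters present and nothing more.

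Pck1, cytosolic phosphoenolpyruvate carboxykinase and the entry enzyme of gluconeogenesis, was at 231, 309 and 187 FPKM in WT replicates 1 to 3 and at 1657, 1904 and 1579.8 FPKM in fat-1 replicates 1 to 3. The groups were far apart: the lowest fat-1 library was more than 5 times the highest WT library. The means were 242 ± 61.5 and 1713 ± 169 FPKM (SD, n = 3 each), and the log2 difference, fat-1 minus WT, was 2.84 ± 0.20 (SE). Ranked by FPKM among all genes listed, Pck1 was between position 156 and 369 in WT libraries and between 15 and 17 in fat-1 libraries.

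Slc38a3, the glutamine transporter of the basolateral membrane also called SNAT3, was at 7.37, 9.12 and 5.97 FPKM in WT kidneys and at 76.5, 45.5 and 34.5 FPKM in fat-1. All fat-1 libraries were above all WT libraries, and fat-1 replicate 1 was more than 2 times replicate 3. The log2 difference was 2.59 ± 0.30 (SE), between means of 7.49 ± 1.58 and 52.2 ± 21.8 FPKM (SD, n = 3). Its rank moved from between 5475 and 6871 in WT to between 901 and 1884 in fat-1.

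Glud1, the mitochondrial enzyme that takes ammonium from glutamate, was nearly the same in the 3 WT libraries, at 109, 105 and 104 FPKM, and was at 265, 204 and 203 FPKM in fat-1. The groups did not overlap, and replicate 1 was again the highest of the fat-1 libraries. This was a log2 difference of 1.06 ± 0.14 (SE), from 106 ± 2.57 to 224 ± 35.4 FPKM (SD, n = 3). Pcx, pyruvate carboxylase, which supplies oxaloacetate from pyruvate, was at 88.2, 120 and 101 FPKM in WT kidneys and at 203, 223 and 177 FPKM in fat-1. Here too every fat-1 library was above every WT library, with a log2 difference of 0.96 ± 0.16 (SE). The gene Lrfn4 lies within Pcx on the opposite strand, at a mean of 1.30 FPKM.

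The 3 genes at the glucose end of the route differed less. Fbp1, fructose-1,6-bisphosphatase, was at 414, 507 and 553 FPKM in WT kidneys and 758, 703 and 585 FPKM in fat-1. G6pc, the catalytic subunit of glucose-6-phosphatase, was at 139, 165 and 155 FPKM in WT kidneys and 173, 253 and 269.7 FPKM in fat-1. Slc37a4, which brings glucose-6-phosphate to that enzyme in the endoplasmic reticulum, was at 59.2, 70.3 and 68.5 FPKM in WT kidneys and 72.6, 82.4 and 91.2 FPKM in fat-1. In all 3 genes the groups did not overlap, but the gap between them was narrow: the highest WT and the lowest fat-1 library of G6pc were at 165 and 173 FPKM. The log2 differences were 0.47 ± 0.16 for Fbp1, 0.58 ± 0.19 for G6pc and 0.31 ± 0.13 for Slc37a4 (SE). Fat-1 replicate 1 was the highest fat-1 library for Fbp1, as for Slc38a3 and Glud1, and the lowest for G6pc and Slc37a4.

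Pck2, the mitochondrial form of the carboxykinase, was the lowest of the 8 genes in every fat-1 library and in every WT library. It was at 5.91, 2.13 and 3.30 FPKM in WT kidneys and at 3.60, 3.47 and 4.04 FPKM in fat-1. The groups overlapped, and the log2 difference of 0.05 ± 0.29 (SE) had a sign that changed, to -0.22, without WT replicate 2. An antisense gene, Gm10876, overlaps Pck2, and its reads cannot be told apart from those of Pck2 unless strand was used in counting, and no source used here says whether it was.

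**Figure D1:**
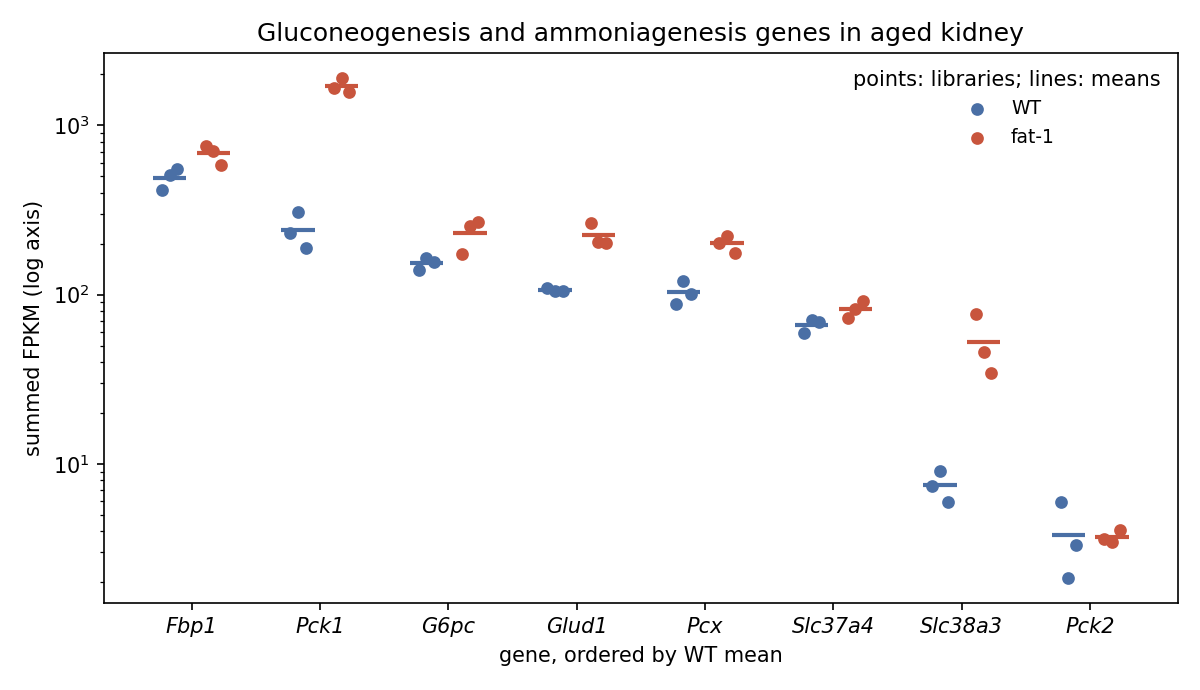
Summed FPKM of the 8 genes on a log axis, with 1 point per library and a line at each group's mean (3 WT in blue, 3 fat-1 in red). Pck1 moves from 187 to 309 FPKM in WT to 1579.8 to 1904 FPKM in fat-1 and Slc38a3 from 5.97 to 9.12 to 34.5 to 76.5 FPKM, while the points of Pck2 overlap.

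In 7 of the 8 genes every fat-1 library was above every WT library, where 8.33% of the 11698 tested genes showed this arrangement. In the limma fit across all tested genes 2 of the 8, Pck1 and Slc38a3, were called at an adjusted p under 0.05, where 0.180% of tested genes were called and 0.120% were called higher. None of the 8 was called lower or had every fat-1 library below every WT library, where the shares over all tested genes were 0.0598% and 6.86%. At an unadjusted p under 0.05, limma gave 6 of 8, all higher, against 9.97% of tested genes. Since the genes were chosen with this contrast known, nothing is read from these counts. All 8 passed the filter on low values. The median log2 difference was 0.77 over the 8 genes and 0.0059 over all tested genes. Leaving out 1 library at a time, limma called Pck1 without WT replicate 1 or WT replicate 2 and called none of the 8 without WT replicate 3 or any 1 fat-1 library, while the log2 difference of Pck1 stayed between 2.67 and 3.03 and that of Slc38a3 between 2.28 and 2.84.

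**Figure D2:**
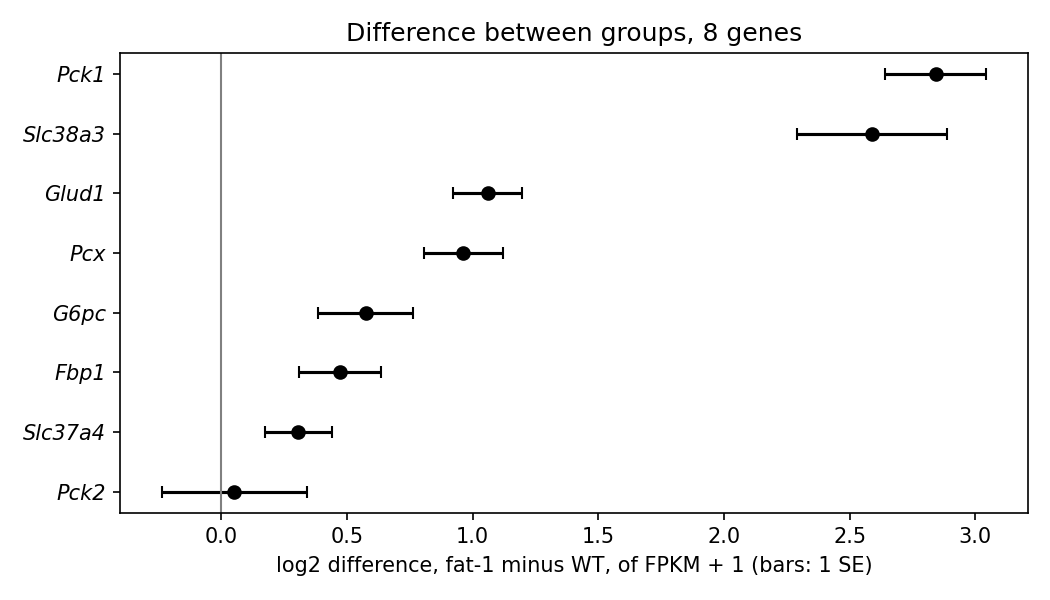
Log2 difference between groups, fat-1 minus WT, of FPKM + 1 for each of the 8 genes, with bars of 1 SE from the limma fit. Pck1 (2.84) and Slc38a3 (2.59) stand apart from Glud1 (1.06) and Pcx (0.96), and Pck2 (0.05) is at zero within its error.

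The balance among the 8 genes shifted toward Pck1. In WT, Fbp1 was the most abundant of them and held 39.3%, 39.4% and 46.9% of their summed FPKM in replicates 1 to 3, with Pck1 at 21.9%, 24.0% and 15.9%. In fat-1, Pck1 held 51.6%, 55.7% and 53.7%, and Fbp1 23.6%, 20.6% and 19.9%. The ratio of Pck1 to Fbp1 was 0.501 ± 0.143 in WT and 2.53 ± 0.299 in fat-1, and that of Pck1 to G6pc 1.58 ± 0.342 and 7.64 ± 1.85 (SD, n = 3). These ratios do not depend on how libraries are scaled. Pck1 exceeded the mitochondrial form 39.0, 145 and 56.8 times in WT and 461, 548 and 391 times in fat-1. On the glutamine side, Slc38a3 was 0.0706 ± 0.0151 of Glud1 in WT and 0.227 ± 0.0595 in fat-1, so the transporter differed more than the dehydrogenase. The WT order, from high to low mean, was Fbp1, Pck1, G6pc, Glud1, Pcx, Slc37a4, Slc38a3 and Pck2. Glud1 (106 ± 2.57 FPKM) and Pcx (103 ± 16.1 FPKM) did not differ beyond their spread. In fat-1 the order was Pck1, Fbp1, G6pc, Glud1, Pcx, Slc37a4, Slc38a3 and Pck2, and G6pc (232 ± 51.4 FPKM), Glud1 (224 ± 35.4 FPKM) and Pcx (201 ± 23.0 FPKM) lay within each other's spread.

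How the FPKM of a gene was divided between its transcripts is a measure that the choice of genes did not use. It is given by library and without a test, since an exact test of 3 against 3 samples cannot go below a p of 0.10. Pck1 and G6pc each had 1 listed transcript, and 1 transcript held over 98% of Fbp1 and over 99% of Glud1 on average. Pcx did not follow the groups. Pcx-202, which starts at the downstream site (chromosome 19, position 4594346, mm10), held 72.5%, 77.6% and 62.8% of Pcx in WT and 71.6% in fat-1 replicate 1, but 3.05% and 1.63% in fat-1 replicates 2 and 3. In those 2 libraries Pcx-204, which starts at the upstream site (position 4510513), held 96.5% and 97.6%, against 6.54% to 17.1% in the other 4 libraries. Both transcripts have the same coding exons, for 1178 amino acids, and differ outside them. The higher summed Pcx was therefore present in fat-1 replicate 1 with the WT mix of transcripts and in fat-1 replicates 2 and 3 with another. With the transcript of highest mean, Pcx-204, in place of the sum, the log2 difference of Pcx was 2.77 (limma, adjusted p = 0.511). That value came from fat-1 replicates 2 and 3, where Pcx-204 was at 215 and 173 FPKM, while fat-1 replicate 1 (16.5 FPKM) lay within the WT range of 5.77 to 20.5 FPKM. Pcx-202 went the other way in those 2 libraries, at 6.80 and 2.89 FPKM against 63.3 to 93.2 FPKM in WT kidneys and 145 FPKM in fat-1 replicate 1.

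Slc37a4 also differed in single libraries. Slc37a4-207 held 95.7% and 97.2% in WT replicates 1 and 2 and 61.1%, 83.0% and 88.6% in fat-1 replicates 1 to 3, but was listed at 0 in WT replicate 3. There Slc37a4-203 (54.7%) and Slc37a4-201 (37.9%), which share its coding exons for 429 amino acids, took its place. Of Slc38a3, the transcript Slc38a3-209 held 88.3% to 95.7% in WT and 78.2%, 94.9% and 79.5% in fat-1. Slc38a3-201 and Slc38a3-202, with the same coding exons for 505 amino acids, held up to 13.2% and 7.24%, both in fat-1 replicate 1. Pck2 was spread over 5 transcripts, and Pck2-201 held 47.6% in WT replicate 1 and at most 2.39% elsewhere. Division between transcripts that share most of their sequence rests on few distinguishing reads, and no source used here names the tool that made it.

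**Figure D3:**
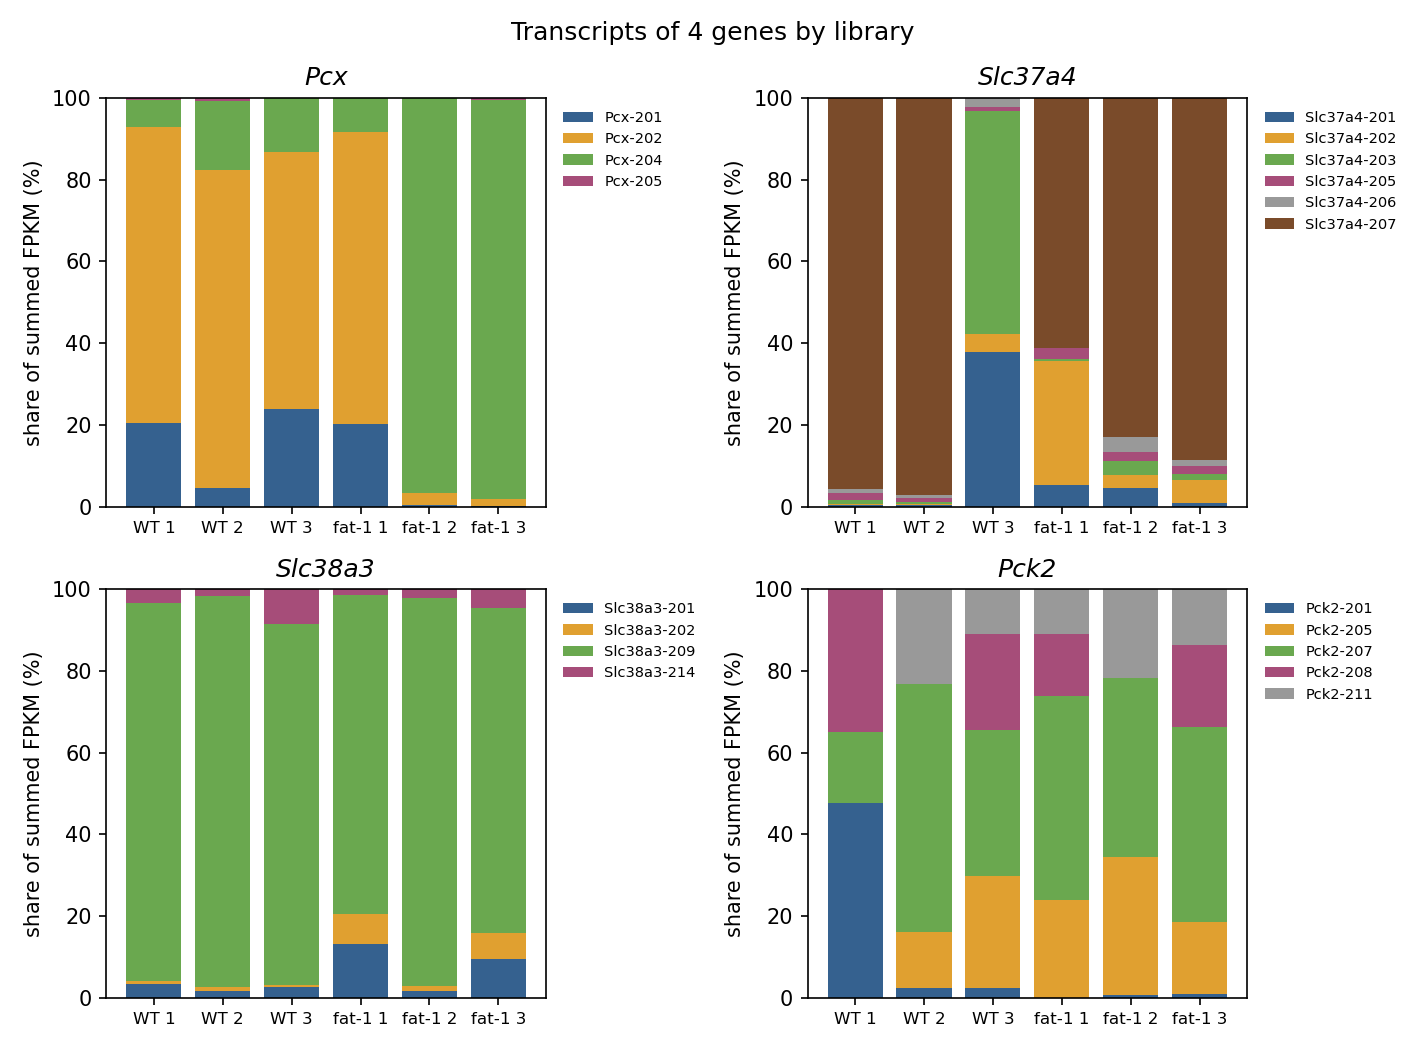
Share of each gene's summed FPKM (in percent, stacked to 100) held by each listed transcript in each of the 6 libraries, for Pcx, Slc37a4, Slc38a3 and Pck2. Pcx-204 makes up 96.5% and 97.6% of Pcx in fat-1 replicates 2 and 3 only, and Slc37a4-207 is missing in WT replicate 3.

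A further 21 tested enzymes were those shared with glycolysis, those of malate, aspartate, glycerol and fructose steps, and the phosphatases Fbp2 and G6pc3. Of these, limma called 0 at an adjusted p under 0.05, against 0.180% of all tested genes. At an unadjusted p under 0.05 limma gave 4 higher and 2 lower, against 9.97% of all tested genes in either direction. The median log2 difference of the 21 was 0.013. For single genes here and below, 8.33% of all tested genes had every fat-1 library above every WT library, and 6.86% had every fat-1 library below. Triose kinase (Tkfc), which brings fructose carbon into the route, was at 90.9, 112 and 109 FPKM in WT kidneys and 181, 175 and 196 FPKM in fat-1 kidneys (adjusted p = 0.0728). Gpd1, which links glycerol phosphate with the triose phosphates, was at 77.2, 109 and 90.8 FPKM in WT kidneys and 201, 177 and 146 FPKM in fat-1 kidneys (adjusted p = 0.123). In both genes the groups did not overlap. Glycerol kinase (Gk) overlapped between groups, at 166 ± 26.4 and 189 ± 27.1 FPKM. In 4 of the 21 every fat-1 library was above every WT library, and in 2 every fat-1 library was below. G6pc3, another glucose-6-phosphatase gene, was among the latter. It was at 30.8, 29.2 and 32.8 FPKM in WT kidneys and 16.8, 11.6 and 25.6 FPKM in fat-1 kidneys (limma, adjusted p = 0.333).

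Among 16 tested enzymes of glutamine, glutamate and related amino acids, limma called 0. At an unadjusted p under 0.05 it gave 1 higher and 0 lower, against 9.97% of all tested genes. The median log2 difference of the 16 was -0.0016. Glul, glutamine synthetase, which fixes ammonium as glutamine, was at 200.04 ± 19.1 FPKM in WT kidneys and 199 ± 35.7 FPKM in fat-1 kidneys (SD, n = 3; adjusted p = 0.993). Psat1 of serine synthesis, which uses glutamate, was the gene with the smallest p in this list, at 3.27 ± 0.457 and 5.84 ± 0.205 FPKM (adjusted p = 0.142). Suclg1, a subunit of succinyl-CoA ligase in the TCA cycle, was next, at 210.2 ± 41.2 and 283 ± 37.8 FPKM (adjusted p = 0.513).

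Carriers of the substrates gave 0 calls among 28 tested genes in limma and a median of 0.017. At an unadjusted p under 0.05 limma gave 5 higher and 2 lower, against 9.97% of all tested genes. Slc13a2, the apical sodium-coupled citrate and dicarboxylate transporter, was at 17.7, 21.3 and 13.9 FPKM in WT kidneys and 37.2, 38.8 and 43.4 FPKM in fat-1 kidneys (adjusted p = 0.0655). Slc16a7, a monocarboxylate transporter with high affinity for pyruvate, was at 19.5, 17.3 and 16.5 FPKM in WT kidneys and 8.39, 9.15 and 10.4 FPKM in fat-1 kidneys (adjusted p = 0.0700). The groups were separate in both genes, in opposite directions. Of the glucose transporters of the proximal tubule, Slc2a2 and Slc5a2 overlapped between groups. Slc2a2, through which glucose leaves the cell, was at 22.6 ± 7.17 and 25.7 ± 9.73 FPKM. Slc5a2, which takes glucose from the filtrate, was at 89.7 ± 16.9 and 77.5 ± 43.6 FPKM (SD, n = 3). Slc5a1, a further glucose transporter gene, did not overlap. It was at 18.5, 26.7 and 18.4 FPKM in WT kidneys and 31.1, 27.0 and 32.5 FPKM in fat-1 kidneys (limma, adjusted p = 0.368).

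The pattern was then set beside genes known to respond to an acid load, a list that also holds genes known to fall with it. The list leaves out Pck1, Slc38a3 and Glud1, which are described above and are also known to rise with an acid load. Its counts and median do not cover these genes, whose log2 differences were 2.84, 2.59 and 1.06. Of 22 tested, limma called 0, and the median log2 difference was -0.13. At an unadjusted p under 0.05 limma gave 2 higher and 2 lower, against 9.97% of all tested genes. In 3 of the 22 every fat-1 library was above every WT library, and in 1 every fat-1 library was below. The shares over all tested genes were 8.33% and 6.86%. Slc13a2, described above, was the highest difference in the list. Slc26a4, the chloride-bicarbonate exchanger pendrin of base-secreting intercalated cells, which is known to fall in acidosis, was at 27.4, 28.0 and 27.1 FPKM in WT kidneys and 13.7, 19.2 and 12.96 FPKM in fat-1 kidneys (adjusted p = 0.118). Its fat-1 libraries were all below its WT libraries. Slc9a3, the apical sodium-proton exchanger, was at 18.2 ± 2.65 and 16.4 ± 5.44 FPKM (adjusted p = 0.899), and Slc4a4, through which bicarbonate returns to the blood, at 116 ± 11.9 and 140.4 ± 26.1 FPKM (adjusted p = 0.732). The ammonia channel gene Rhcg of the collecting duct was at 49.4 ± 2.39 and 41.2 ± 10.9 FPKM (adjusted p = 0.762). All 3 overlapped between groups.

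The next list holds genes known to rise in fasting through PPAR alpha, FOXO and cyclic AMP. It was built from genes that rise, unlike the acid load list, so the counts of the lists are not like for like. It also leaves out the pathway genes, Pck1 among them. Of 25 tested, limma called 3 higher and 0 lower, which is 12.0% against 0.180% of all tested genes. At an unadjusted p under 0.05 limma gave 16 higher and 1 lower, against 9.97% of all tested genes. In 17 of the 25 every fat-1 library was above every WT library, with 8.33% as the share over all tested genes, and the median log2 difference was 0.94. The called genes named here are Pdk4 and Slc25a25. Pdk4, the kinase that keeps pyruvate from oxidation, was at 7.76, 7.19 and 6.91 FPKM in WT kidneys and at 57.1, 36.7 and 67.5 FPKM in fat-1 kidneys (log2 difference 2.68 ± 0.22, SE; adjusted p = 0.0284). Slc25a25, a mitochondrial ATP-magnesium and phosphate carrier, was at 12.7 ± 4.78 and 111 ± 32.9 FPKM (SD, n = 3; adjusted p = 0.0473). Igfbp1, a FOXO target that rises in fasting liver, was at 16.6, 6.12 and 5.11 FPKM in WT kidneys and 13.3, 17.8 and 18.0 FPKM in fat-1 and overlapped because of WT replicate 1 (adjusted p = 0.525). The list was drawn up with earlier results of these samples known, so its direction is not independent evidence, and a difference between this list and the acid load list was not tested. Limma called 0 of the list when WT replicate 2 or 3, or fat-1 replicate 1 or 3, was left out, and 1, Pdk4, when fat-1 replicate 2 was. Feeding state and acid-base state were not in the labels and cannot be read from these values.

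Glucocorticoids are known to induce renal Pck1, and 15 of their target genes were tested. Limma called 0, and the median was 0.14. At an unadjusted p under 0.05 limma gave 3 higher and 0 lower, against 9.97% of all tested genes. Sgk1, a kinase of sodium transport, was at 31.5, 21.8 and 23.6 FPKM in WT kidneys and 36.6, 37.3 and 64.4 FPKM in fat-1 kidneys (adjusted p = 0.335). Per1, a clock gene that glucocorticoids also induce, was at 3.70 ± 2.09 and 7.44 ± 1.93 FPKM (SD, n = 3; adjusted p = 0.427). The common target genes Fkbp5, at 29.2 ± 2.55 and 28.8 ± 7.56 FPKM, and Tsc22d3, at 13.5 ± 3.97 and 12.8 ± 2.38 FPKM, overlapped between groups. Fkbp5 had an adjusted p of 0.980 and Tsc22d3 of 0.982.

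**Figure D4:**
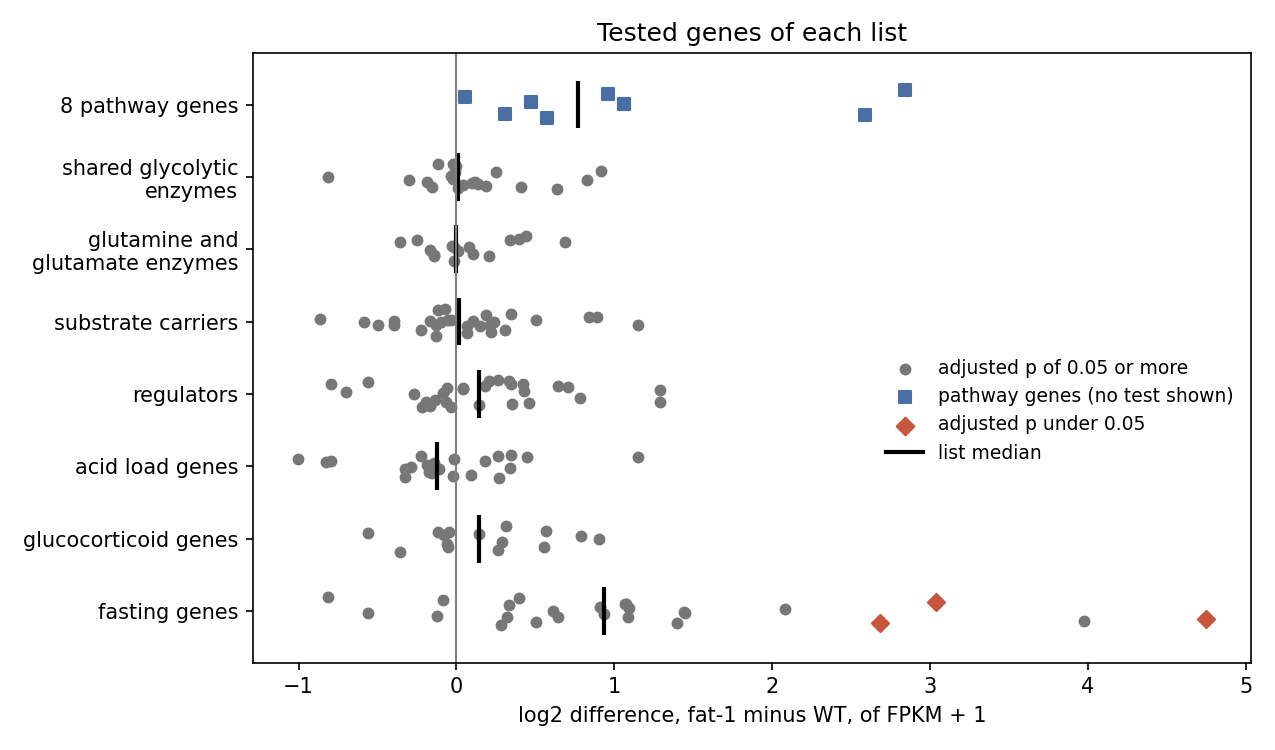
Log2 difference, fat-1 minus WT, of FPKM + 1 for each tested gene (points, jittered in height) of the 8 pathway genes and 7 other lists, with a black line at each list's median. The median of the fasting genes is 0.94 and that of the acid load genes -0.13, and 3 fasting genes, Slc25a25 and Pdk4 among them, have an adjusted p under 0.05. Both lists leave out the pathway genes, which include Pck1, Slc38a3 and Glud1. The acid load list also holds genes known to fall with an acid load, so the 2 medians are not like for like.

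Transcription factors and cofactors that act on gluconeogenic promoters gave 0 calls among 29 tested in limma and a median of 0.14. At an unadjusted p under 0.05 limma gave 2 higher and 3 lower, against 9.97% of all tested genes. Cebpa, which binds the Pck1 promoter, was at 11.1, 12.0 and 10.3 FPKM in WT kidneys and 19.2, 15.4 and 22.6 FPKM in fat-1 kidneys (adjusted p = 0.163). Its groups did not overlap. Ppara, the receptor of the fasting list, was at 8.56, 5.46 and 3.27 FPKM in WT kidneys and 9.01, 22.1 and 15.7 FPKM in fat-1 kidneys (adjusted p = 0.314). Hnf4a (162 ± 18.2 and 154 ± 8.81 FPKM), Foxo1 (6.81 ± 0.616 and 7.65 ± 0.971 FPKM), the glucocorticoid receptor gene Nr3c1 (18.5 ± 0.638 and 16.5 ± 2.56 FPKM) and the coactivator gene Ppargc1a (16.2 ± 3.77 and 15.0 ± 1.42 FPKM) all overlapped between groups (SD, n = 3).

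The 5 tested genes whose log2(FPKM + 1) followed Pck1 most closely over the 6 libraries were Egln3 (Pearson r = 0.998), Lmcd1 (0.994), Trp53bp2 (0.994), Snx9 (0.990) and Slc22a4 (0.990). With 2 groups far apart such values mostly reflect the group difference, and they are a description only. Egln3, a prolyl hydroxylase that acts on hypoxia-inducible factors, was at 5.61, 7.13 and 5.23 FPKM in WT kidneys and 15.2, 16.1 and 15.2 FPKM in fat-1. Slc22a4, a transporter of ergothioneine and organic cations, was at 17.4 ± 0.718 and 27.1 ± 0.470 FPKM (SD, n = 3). None of the 8 genes was among these 5.

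Kidney tissue was sequenced, which holds many cell types, so more cells of a type and more RNA per cell cannot be told apart. The proximal tubule, where these genes are mainly used, was present in every library, with 14 of 14 of its markers listed. Their sum was 6523 to 8421 FPKM in WT kidneys and 7177 to 9021 FPKM in fat-1. Limma called 0 of the 14 and gave 3 higher and 1 lower at an unadjusted p under 0.05, against 9.97% of all tested genes. For the late segment, S3, 10 of 10 were listed, at 633 to 1378 FPKM in WT kidneys and 596 to 904 FPKM in fat-1. Endothelial markers (10 of 10 listed) did move with the pathway genes, at 94.7 to 115 FPKM in WT kidneys and 187 to 257 FPKM in fat-1, and their part in the result was not tested. Intercalated cell markers (11 of 11 listed), among them Slc26a4, were at 270 to 292 FPKM in WT kidneys and 191 to 237 FPKM in fat-1, and their part in the result on Slc26a4 was not tested. Podocyte markers (7 of 7 listed) were at 64.9 to 76.8 and 98.3 to 114 FPKM, and those of the distal convoluted tubule (9 of 9 listed) at 406 to 590 and 243 to 349 FPKM, in WT and fat-1 in turn. Fat tissue also uses Pck1. Of 10 adipocyte markers 5 were not listed, namely Plin1, Cidec, Lep, Retn and Ucp1. Adipoq was listed at 0 in 3 libraries and at 1.84 FPKM at most. The sum of the 5 listed markers was led by Fabp4, which endothelial cells also express. Lipe, hormone-sensitive lipase, which was singled out after its values were seen, was at 5.45, 6.75 and 5.70 FPKM in WT kidneys and 13.95, 13.4 and 11.5 FPKM in fat-1, with every fat-1 library above every WT library. Car3 and Cfd, also listed, overlapped between groups. Their means in WT and fat-1 were 9.66 and 9.33 FPKM for Car3 and 1.64 and 1.55 FPKM for Cfd. The sum of the 5 was 44.0 to 83.1 FPKM in WT kidneys and 109 to 129 FPKM in fat-1. Of 10 hepatocyte markers 8 were listed, at 471 to 804 FPKM in WT kidneys and 628 to 789 FPKM in fat-1, led by Cyp2e1, which the kidney also expresses. Alb, the defining liver transcript, was at 1.43 to 2.80 FPKM in WT kidneys and 5.72 to 8.02 FPKM in fat-1. Of the 7 hepatocyte markers tested, 2, Alb among them, had every fat-1 library above every WT library, and 0 had every one below. Ttr, Apoa1, Cyp2e1 and Serpina1a overlapped between groups. Means in WT and fat-1 were 36.2 and 28.6 FPKM for Ttr and 2.48 and 2.08 FPKM for Apoa1. Of 7 adrenal markers 2 were listed, and Star was at 0.507 FPKM at most. Akr1b7 was at 5.61 FPKM in fat-1 replicate 1 and at 1.07 to 2.06 FPKM in the other 5 libraries. The part of podocyte, distal convoluted tubule, adipocyte, hepatocyte and adrenal RNA in the differences of the 8 genes was not tested.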

How the data were processed

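Total RNA of mouse kidney was sequenced in 6 libraries. Per the file headers, the authors deposited FPKM per transcript, 1 table per sample. The submitters' processing notes name the build mm10, the aligner HISAT2 (2.0.5), the counter featureCounts (1.5.0-p3) and DESeq2 (1.20.0). No source used here names the tool that made the FPKM. Each of the 27486 listed transcripts, all protein-coding, reaches 0.5 FPKM in at least 1 library, so sums miss lower transcripts. A few abundant genes can shift all other FPKM of a library. Symbols turned into dates on 64 lines were restored. Name tables held 13670 of 13696 gene identifiers. Gene models were GENCODE M21 (mm10), matched without version numbers.

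FPKM was summed per gene identifier. Limma 3.58.1 (R 4.3.3) was run on log2(FPKM + 1), with trend and robust variance, no covariates and no rescaling, over the 11698 genes that reached 1 FPKM in 3 or more libraries. Differences on this scale understate the change of low genes. Benjamini-Hochberg adjusted p-values cover all tested genes, with a threshold of 0.05. In 6815 genes with 1 transcript, 19% to 24.7% of low values, times length, fell within 0.05 of whole multiples of the best-fitting step. That step was the best of many tried in each library, and the share expected by chance was not computed. Whole reads were not recovered. On simulated data of 11698 genes the fit recovered 68.8% of genes changed 2-fold, and 0 were called in a single run where nothing changed. Changes were placed only in genes above the median level, and noise was independent between libraries. Recovery at lower levels or with noise shared within a library was not examined, so the share may not hold for these data. The members and lists were chosen with earlier results of these data known. Named genes were the 8 members, a set of 20 chosen with the lists, the called genes and the 2 with the smallest p in each list, the 5 most correlated with Pck1, and leading or absent markers. Some further markers of fat, liver and adrenal, such as Lipe and Alb, and the list genes Slc5a1 and G6pc3, were named outside this rule. Tables were joined in pandas 2.3.3 under Python 3.11.15 and drawn in matplotlib 3.10.9. Alternatives covered pseudocount, filter, scaling (including the trimmed mean of M values), robust estimation, each library left out and the most abundant transcript. A few genes of the named set are not reported here.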

Additional observations from a re-analysis of the deposited data

How the results depend on the processing

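Directions of Pck1, Slc38a3, Glud1, Pcx, G6pc, Fbp1 and Slc37a4 held in all 14 alternatives. The number of all genes called in limma, 21 in the reported fit, was 4 with no filter, 42 with at least 5 FPKM in 3 libraries, 8 with median-of-ratios scaling, 10 with the trimmed mean of M values, 33 when scaled to the sum without mitochondrial genes, and 0 to 25 when 1 library was left out. Of the 8 pathway genes, 2 were called as reported. With a pseudocount of 0.1, no filter, median-of-ratios scaling, the trimmed mean of M values or the most abundant transcript only, 1 was called, Pck1. With at least 5 FPKM in 3 libraries or when scaled to the sum without mitochondrial genes 3 were called, and 0 to 1 with 1 library left out. Slc38a3, near the threshold in the reported fit (limma, adjusted p = 0.0496), was called in 3 of the 14 alternatives, and Pck1 in 10. With the most abundant transcript only, the log2 difference was 2.77 for Pcx and 2.0 for Slc37a4, whose leading transcript changes between libraries. Glud1 was called under 2 alternatives, with at least 5 FPKM in 3 libraries and when scaled to the sum without mitochondrial genes. In the fasting list, 3 were called as reported, 1 with no filter or median-of-ratios scaling, 7 with at least 5 FPKM in 3 libraries or when scaled to the sum without mitochondrial genes, and 0 to 3 with 1 library left out. Slc13a2 was the 1 gene called in each of the carrier and acid load lists with at least 5 FPKM in 3 libraries. With 1 library left out, log2 differences that were not called crossed zero for Fkbp5 (-0.22 to 0.158), Glul (-0.152 to 0.0985), Hnf4a (-0.122 to 0.0228), Ppargc1a (-0.194 to 0.0882), Slc2a2 (-0.105 to 0.451), Slc5a2 (-0.781 to 0.182), Slc9a3 (-0.41 to 0.0516) and Tsc22d3 (-0.276 to 0.133). Where no construction shows it, the cause was not tested. Depth is unknown, so what it limits was not assessed. No paired analysis was possible because the labels give the groups no shared replicate numbers.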
